A study of Arabidopsis thaliana with 9 samples.

Results

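Arabidopsis preys that were recovered with both SCAB1 and SOS2 as bait, and far less with PKS5, were 65 genes of the 10224 in the deposited table. A gene belonged to them when its lowest level in the 6 SCAB1 and SOS2 libraries was at least 20 CPM (counts per 1000000 reads of the library) and at least 4 times its highest level in the 3 PKS5 libraries. The level condition was met by 550 genes and both conditions by 70, of which 5 were set aside by name: AT3G04120, AT1G13440, SAM1 (AT1G02500), AT1G33810 and AT4G26860. Because these levels chose the members, the difference from PKS5 is described below and not tested.

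The material was a cDNA library of Arabidopsis thaliana screened in yeast against 3 baits, and the reads count prey inserts amplified from the selected colonies. SCAB1, SOS2 and PKS5 had 3 libraries each, all from colonies selected by growth without histidine, tryptophan and leucine in the presence of 3-AT at 1 mM, which slows histidine synthesis, and more than 3000 colonies went into each sample. The libraries of a bait had recovery times of 0, 2 and 4 h and are listed in that order throughout. The labels do not say that they came from separate cultures, so p-values measure only the spread between these libraries, and no library without selection was analysed here.

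In a two-hybrid screen a prey that touches the bait brings the separated parts of a transcription factor together on a reporter gene, which lets the yeast cell grow without histidine. SOS2 and PKS5 are plant protein kinases of the family that is switched on by calcineurin B-like calcium sensors, known from salt tolerance and from control of the plasma-membrane proton pump. SCAB1 is unrelated to them and binds, bundles and stabilises actin filaments during stomatal closure. A screen of this kind records growth of yeast and copies of plasmids, so a level is a share of a library's reads and not a binding strength. Reads start where the vector meets the insert and the counts carry no correction for length, so each gene was compared with itself across libraries.

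Libraries held 1640114 to 3288437 reads, and a gene without a read could still have stood at up to 3 reads, which is 0.912 to 1.83 CPM. That limit covers counting error only, since the reads are PCR copies. The 65 genes held 19.7, 24.3 and 23.2% of the reads of the SCAB1 libraries, 9.78, 10.1 and 11.5% of those of SOS2, and 0.290, 0.117 and 0.342% of those of PKS5. Among the 50 genes with most reads, members numbered 10, 13 and 14 in SCAB1, 11, 10 and 12 in SOS2 and 0 in each PKS5 library, where the best placed member ranked 142, 167 and 125. The mean CPM of a member was 29.5 to 57916 in SCAB1 (median 653), 32.3 to 9105 in SOS2 (median 783) and 0.477 to 260 in PKS5 (median 13.2). Within PKS5, replicate 2 gave the lowest level for 63 of the 65 genes, and 3 genes had no read in at least 1 PKS5 library.

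**Figure D1:**
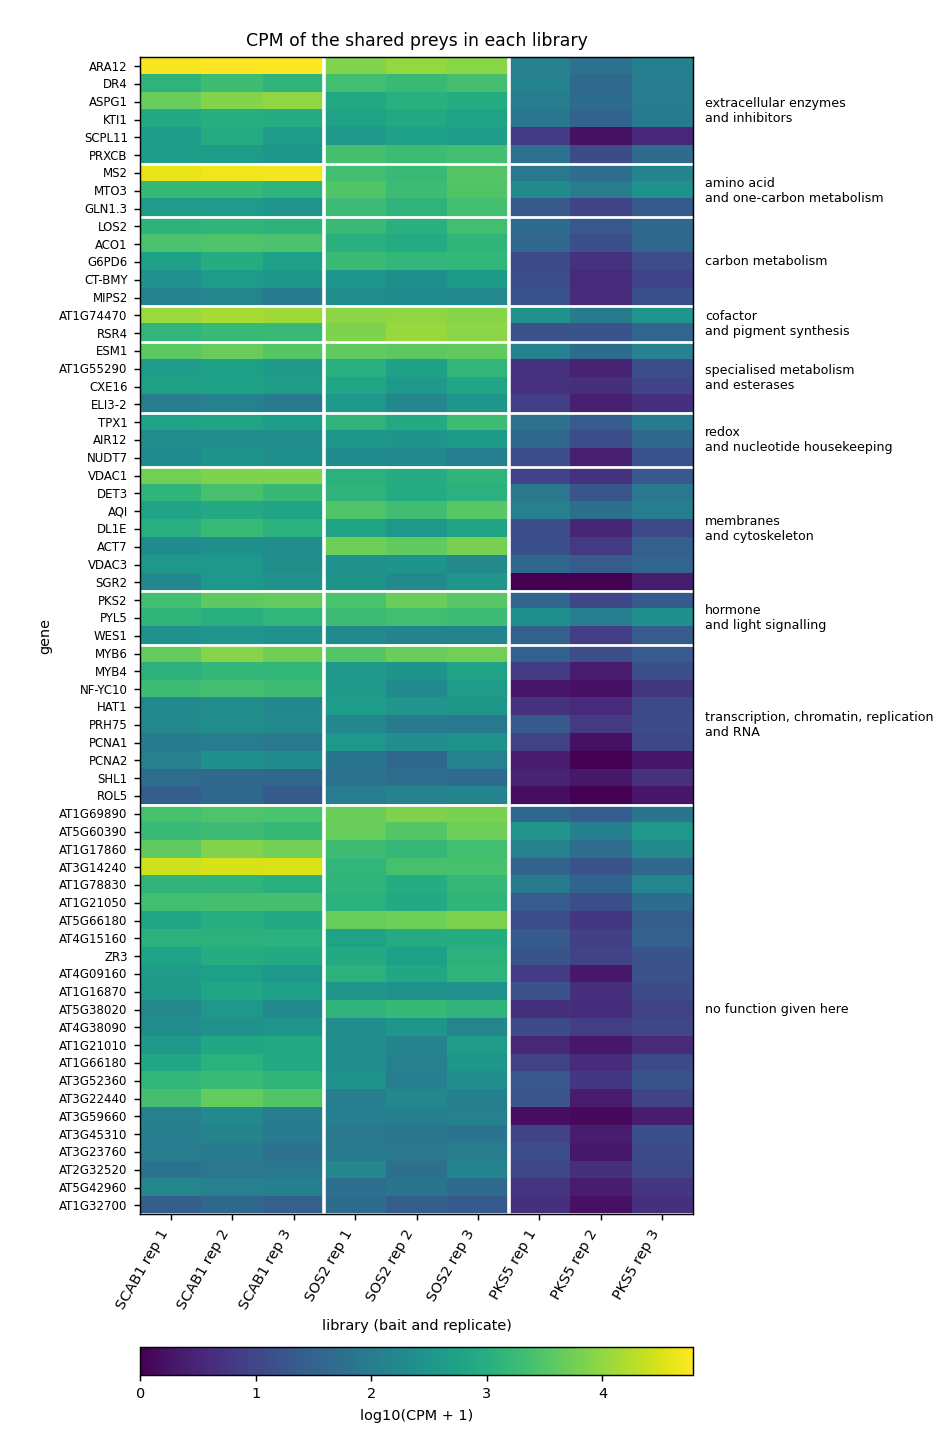
Level of each of the 65 shared preys (rows, grouped by function) in the 9 libraries (columns, by bait and replicate), as log10(CPM + 1). The SCAB1 and SOS2 columns are bright for the same rows while the PKS5 columns are dark, and MS2, AT3G14240 and ARA12 are brighter with SCAB1 and ACT7 with SOS2.

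All 65 genes matched the RefSeq table of assembly TAIR10.1, and 41 have a symbol there other than their locus. A function was given to 42 that have a symbol or synonym there, and the other 23 were given none, which does not mean that their function is unknown. Group sizes therefore depend on which genes are named in that table. The preys with a function were spread over metabolism, extracellular enzymes, membranes and the cytoskeleton, signalling, and nuclear proteins. Members lay on all 5 chromosomes, with 18, 6, 16, 13 and 12 genes on chromosomes 1 to 5. In the annotation AT1G21010 and AT1G21050 are neighbours with no protein-coding gene between them.

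Extracellular enzymes and their inhibitors made up 6 members. ARA12, a subtilisin-like protease of the seed coat, had 53310.2, 60465 and 59974 CPM in the SCAB1 libraries, 7497, 10651 and 8453 CPM in SOS2, and 119.9, 62.8 and 117 CPM in PKS5. ASPG1, an aspartic protease named for guard cells, had 4928, 7695 and 9515 CPM in SCAB1, 761, 1106 and 932 in SOS2 and 102, 48.2 and 107 in PKS5. For both proteases the order of the baits was the same, with each SCAB1 library above each SOS2 library and PKS5 lowest. DR4, a drought-repressed gene of the Kunitz inhibitor family, had 1277, 1974 and 1359 CPM in SCAB1, 2117, 1738 and 2311 in SOS2 and 136, 43.9 and 109.6 in PKS5, so the first 2 baits overlapped. KTI1, a Kunitz trypsin inhibitor of the same kind that lies 7 protein-coding genes from DR4, had 852, 957 and 901 CPM in SCAB1 and 564, 751 and 559 in SOS2, without overlap, and 75.3, 30.4 and 91.9 in PKS5. The peroxidase PRXCB, which makes hydrogen peroxide in the cell wall, ran the other way, with 451, 428 and 324 CPM in SCAB1, 2378, 1865 and 2208 in SOS2 and 60.6, 11.9 and 45.5 in PKS5. SCPL11, a serine carboxypeptidase-like protein, averaged 599.5 ± 249 CPM in SCAB1, 460.0 ± 86.5 in SOS2 and 2.91 ± 2.55 in PKS5 (SD, n = 3 each).

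Enzymes of amino acid and one-carbon metabolism were 3 members. MS2, a methionine synthase, had 41255, 48481 and 49066 CPM in SCAB1, 2137, 1728 and 3223 in SOS2 and 79.6, 51.5 and 141 in PKS5, which set the 3 baits apart without overlap. MTO3, which makes S-adenosylmethionine from methionine, had 1589.9, 1571 and 1274 CPM in SCAB1, 2997, 1879 and 3014 in SOS2 and 199.9, 99.5 and 286 in PKS5. GLN1.3, a cytosolic glutamine synthetase, had 419.7, 438 and 313 CPM in SCAB1, 1937, 1263 and 2217 in SOS2 and 20.8, 8.59 and 21.5 in PKS5. MTO3 and GLN1.3 were thus higher in every SOS2 library than in any SCAB1 library, the reverse of MS2. In cofactor and pigment synthesis, AT1G74470, the geranylgeranyl reductase of chlorophyll and tocopherol synthesis, was the member with the highest floor, at 11571, 14247 and 12375 CPM in SCAB1, 8753, 9859 and 8143 in SOS2 and 260.1, 94.8 and 314 in PKS5. RSR4, also called PDX1.3 and a subunit of the enzyme that makes vitamin B6, had 1405, 1726 and 1723 CPM in SCAB1, 7169, 11225 and 8919.7 in SOS2 and 15.6, 16.5 and 35.4 in PKS5.

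Carbon metabolism gave 5 members. LOS2, the glycolytic enzyme enolase, had 1229, 1319 and 1247 CPM in SCAB1, 1802, 1074 and 2170.0 in SOS2 and 47.9, 19.8 and 40.7 in PKS5, and the SCAB1 values lay inside the range of SOS2. ACO1, an aconitase, had 2606, 2876 and 2516 CPM in SCAB1, 1065, 857 and 1319.8 in SOS2 and 40.7, 13.9 and 40.7 in PKS5, with SCAB1 above SOS2 in every library. G6PD6, the cytosolic glucose-6-phosphate dehydrogenase that opens the pentose phosphate pathway, had 551, 910.2 and 499 CPM in SCAB1, 1841, 1453 and 1494 in SOS2 and 10.9, 3.96 and 12.4 in PKS5. The chloroplast beta-amylase CT-BMY, which degrades starch, averaged 342 ± 78.8 CPM in SCAB1, 324 ± 83.5 in SOS2 and 7.70 ± 4.85 in PKS5. MIPS2, a synthase of inositol phosphate, averaged 126 ± 25.9 CPM in SCAB1, 203 ± 29.2 in SOS2 and 10.7 ± 6.70 in PKS5.

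Specialised metabolism and esterases gave 4 members, and none of them had a higher mean with SCAB1 than with SOS2. ESM1, which steers the breakdown of glucosinolates, had 3775, 4600.2 and 3372 CPM in SCAB1 and 4192, 3767 and 4153 in SOS2, which overlapped, and 127, 47.6 and 129 in PKS5. AT1G55290 (F6'H2), an enzyme of coumarin synthesis, had 446, 511 and 393 CPM in SCAB1, 1059, 549.5 and 1396 in SOS2 and 3.79, 1.98 and 12.9 in PKS5. CXE16, a carboxylesterase, averaged 505 ± 39.8 CPM in SCAB1, 566 ± 176 in SOS2 and 5.19 ± 2.56 in PKS5, and ELI3-2, of the cinnamyl-alcohol dehydrogenase family, 105 ± 19.99 CPM in SCAB1, 282 ± 97.7 in SOS2 and 3.88 ± 2.53 in PKS5. Among 3 members of redox and nucleotide housekeeping, the peroxiredoxin TPX1 averaged 561 ± 77.5 CPM in SCAB1, 1369 ± 567 in SOS2 and 59.3 ± 35.3 in PKS5. AIR12, a cytochrome held at the outer face of the plasma membrane, had 220.0 ± 6.41 CPM in SCAB1, 342 ± 52.5 in SOS2 and 31.1 ± 15.5 in PKS5. NUDT7, a Nudix hydrolase that restrains defence responses, averaged 250.3 ± 41.1 CPM in SCAB1, 167 ± 50.8 in SOS2 and 9.60 ± 6.999 in PKS5.

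Membrane and cytoskeleton proteins were 7 members. VDAC1, a channel of the outer mitochondrial membrane, had 5721, 7164 and 7120.2 CPM in SCAB1, 1124, 895 and 1357 in SOS2 and 8.05, 3.96 and 19.1 in PKS5. ACT7, an actin of vegetative tissue, had 213, 249.6 and 219 CPM in SCAB1, 5261, 4029 and 6299 in SOS2 and 13.7, 5.29 and 28.7 in PKS5. The channel and the actin were ordered in opposite ways, VDAC1 higher with SCAB1 and ACT7 higher with SOS2 in every library. DET3, subunit C of the vacuolar proton pump, had 1325, 2436 and 1588 CPM in SCAB1, 1263, 861 and 1152 in SOS2 and 77.7, 18.2 and 80.9 in PKS5. AQI, named as an interactor of aquaporins, had 618, 766 and 615 CPM in SCAB1, 2872, 2097 and 3689.6 in SOS2 and 122, 57.5 and 116 in PKS5. DL1E, a dynamin-related protein of membrane fission, and SGR2, required for shoot gravitropism, completed the group with VDAC3. SGR2 averaged 272 ± 94.3 CPM in SCAB1 and 260.0 ± 73.1 in SOS2 but had reads in only 1 PKS5 library, at 1.44 CPM, the level of 3 reads there.

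Signalling proteins were 3 members. PKS2, a phytochrome kinase substrate of light signalling that is unrelated to the bait PKS5, had 2173, 4009.5 and 4231 CPM in SCAB1, 2575, 4993 and 3528 in SOS2 and 34.6, 9.58 and 21.5 in PKS5. PYL5, a receptor of abscisic acid, had 1359, 1035 and 1420.0 CPM in SCAB1, 1870.1, 2151 and 1873 in SOS2 and 237, 111 and 253 in PKS5. PYL5 was the member nearest to the ratio condition, its lowest level being 4.10 times its highest PKS5 level. WES1, also called GH3.5, which joins amino acids to auxin, averaged 279 ± 31.4 CPM in SCAB1, 155 ± 27.1 in SOS2 and 19.7 ± 12.1 in PKS5.

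The nuclear and RNA group of 9 was led by MYB6, a transcription factor of the R2R3 MYB family, with 4519, 8045 and 5676 CPM in SCAB1, 3313, 4927 and 5743 in SOS2 and 28.9, 13.2 and 22.5 in PKS5. MYB4, a repressor of phenylpropanoid genes, had 1157, 1463 and 1459.7 CPM in SCAB1, 384, 301 and 575 in SOS2 and 6.16, 1.32 and 13.9 in PKS5. NF-YC10, a nuclear factor Y subunit, had 1961, 2288 and 1939 CPM in SCAB1, 393, 183 and 442 in SOS2 and 0.948, 0.661 and 4.79 in PKS5. The baits overlapped for MYB6, whereas MYB4 and NF-YC10 were higher in each SCAB1 library. HAT1, a homeodomain-leucine zipper factor, averaged 196 ± 33.8 CPM in SCAB1, 368 ± 72.1 in SOS2 and 5.65 ± 4.26 in PKS5. The RNA helicase PRH75 averaged 203 ± 26.4 CPM in SCAB1, 114 ± 45.7 in SOS2 and 12.4 ± 7.58 in PKS5. The chromatin reader SHL1 overlapped between these baits, at 42.8 ± 5.82 CPM in SCAB1, 53.4 ± 8.85 in SOS2 and 2.24 ± 1.45 in PKS5. ROL5, which takes part in tRNA thiolation, had the lowest floor of all members, at 26.98, 40.2 and 21.3 CPM in SCAB1, 99.3, 131 and 145 in SOS2 and 0.474, 0 and 0.957 in PKS5.

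Of the 23 genes given no function here, AT3G14240 had the most reads with SCAB1, at 26838, 31479 and 33124 CPM, against 1379, 2444 and 2454 in SOS2 and 32.7, 15.5 and 40.2 in PKS5. AT1G69890 had 2434, 2913 and 2703 CPM in SCAB1, 5044, 7172 and 6476 in SOS2 and 38.4, 23.1 and 68.9 in PKS5. AT5G60390 had 1703, 1909.7 and 1579.8 CPM in SCAB1, 4690.1, 3189 and 5404 in SOS2 and 308, 113 and 359.9 in PKS5, the highest mean of any member with PKS5. AT1G69890 and AT5G60390 thus lay above SCAB1 in every SOS2 library, the reverse of AT3G14240. AT1G17860 averaged 5937 ± 1631 CPM in SCAB1, 1910.4 ± 342 in SOS2 and 126 ± 74.8 in PKS5. AT1G78830 averaged 1223 ± 183 CPM in SCAB1, 1261 ± 313 in SOS2 and 91.8 ± 60.9 in PKS5. The neighbouring genes AT1G21010 and AT1G21050 both had higher means with SCAB1, AT1G21050 at 2276 ± 94.3 CPM against 1107 ± 257 in SOS2 and 27.3 ± 16.8 in PKS5, and AT1G21010 at 652 ± 227 CPM against 269 ± 149 in SOS2 and 2.08 ± 0.973 in PKS5. In this group the lowest level over SCAB1 and SOS2 ran from 21.9 to 2434 CPM.

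At the edge of the level condition, ROL5, AT1G32700 and SHL1 lay just inside with floors of 21.3, 21.9 and 39.0 CPM, and BZIP28, RBP47B and AT1G68780 just outside with 17.7, 12.2 and 11.6 CPM. At the edge of the ratio condition, PYL5, PRH75 and AT5G60390 lay just inside at 4.10, 4.18 and 4.39 times the highest PKS5 level. AT5G63500, UBA1, a ubiquitin-activating enzyme, and ATARCA lay just outside at 3.96, 3.81 and 3.62 times.

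Relatives of the members were then read in the same libraries, for 13 families chosen after the members were known. In several families 1 gene held most of the reads with SCAB1 and SOS2. The sources used here do not say how reads of near-identical copies were divided, so the split between close relatives is uncertain. Of the voltage-dependent anion channels, VDAC1 averaged 6668 CPM in SCAB1, 1125 in SOS2 and 10.4 in PKS5 and VDAC3 311 CPM in SCAB1, 245 in SOS2 and 32.5 in PKS5, while VDAC2 and VDAC4 stayed under 10 CPM on average in all 3 baits. LOS2 averaged 1265 CPM in SCAB1, 1682 in SOS2 and 36.1 in PKS5, against 2.18 CPM in SCAB1, 4.22 in SOS2 and 2.37 in PKS5 for the gene listed as ENOC (AT2G29560). G6PD6 averaged 653 CPM in SCAB1, 1596 in SOS2 and 9.10 in PKS5, against 3.63 CPM in SCAB1, 3.85 in SOS2 and 1.92 in PKS5 for G6PD5. MIPS2 stood alone in the same way, with MIPS1 and MIPS3 under 10 CPM on average in every bait, and of 3 aconitases only ACO1 had reads.

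In other families the relatives were compared by the bait that gave the highest mean. MS2 averaged 46267 CPM in SCAB1, 2363 in SOS2 and 90.8 in PKS5, whereas ATMS1, the other methionine synthase with reads, averaged 71.9 CPM in SCAB1, 444 in SOS2 and 90.4 in PKS5. ATMS1 was therefore no higher with SCAB1 than with PKS5 on average, and MS2 was. The 4 S-adenosylmethionine synthetases all had reads: MTO3 averaged 1478 CPM in SCAB1, 2630.0 in SOS2 and 195 in PKS5, SAM1, set aside by name, 34561 CPM in SCAB1, 19150.3 in SOS2 and 261 in PKS5, SAM-2 438 CPM in SCAB1, 4749 in SOS2 and 82.5 in PKS5, and MAT3 18.2 CPM in SCAB1, 865 in SOS2 and 35.3 in PKS5. SAM-2 and MAT3 had their highest means with SOS2, MAT3 being lower on average in SCAB1 than in PKS5. RSR4 averaged 1618 CPM in SCAB1, 9105 in SOS2 and 22.5 in PKS5, against 59.8 CPM in SCAB1, 53.3 in SOS2 and 45.8 in PKS5 for its paralog PDX1.1, which was about even. GLN1.3 averaged 390.2 CPM in SCAB1, 1805 in SOS2 and 17.0 in PKS5, and its paralog GSR2 118 CPM in SCAB1, 1589 in SOS2 and 42.3 in PKS5, both highest with SOS2.

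Abscisic acid receptors had 7 genes with reads of 14 looked up. PYL5 averaged 1271 CPM in SCAB1, 1965 in SOS2 and 200.5 in PKS5, and PYL1, which missed the ratio condition, 717 CPM in SCAB1, 436 in SOS2 and 87.7 in PKS5. RCAR3 had 75.9, 58.1 and 40.2 CPM in SCAB1, 0.455, 0.512 and 0 in SOS2 and 0 in each PKS5 library, so it was read well with SCAB1 and was under the level of 3 reads elsewhere. The sliding clamps of DNA replication, PCNA1 and PCNA2, were both members. PCNA1 had 94.9, 106 and 81.7 CPM in SCAB1, 360.2, 224 and 272 in SOS2 and 7.58, 0.661 and 10.1 in PKS5. PCNA2 had 118, 249 and 200.0 CPM in SCAB1, 72.4, 41.0 and 125 in SOS2 and 1.42, 0 and 0.957 in PKS5. The paralogs were ordered in opposite ways by the 2 baits on mean CPM, with the 3 libraries of each bait apart for PCNA1 and overlapping for PCNA2. DL1E averaged 1251 CPM in SCAB1, 525 in SOS2 and 8.54 in PKS5, and its relative DL1 7.34 CPM in SCAB1, 244 in SOS2 and 13.8 in PKS5, so the mean of DL1 was highest with SOS2 and that of DL1E with SCAB1. PKS2 averaged 3471 CPM in SCAB1, 3699 in SOS2 and 21.9 in PKS5, against 2.28 CPM in SCAB1, 3.14 in SOS2 and 2.86 in PKS5 for PKS1 and 16.8 CPM in SCAB1, 54.3 in SOS2 and 30.8 in PKS5 for PKS4.

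**Figure D2:**
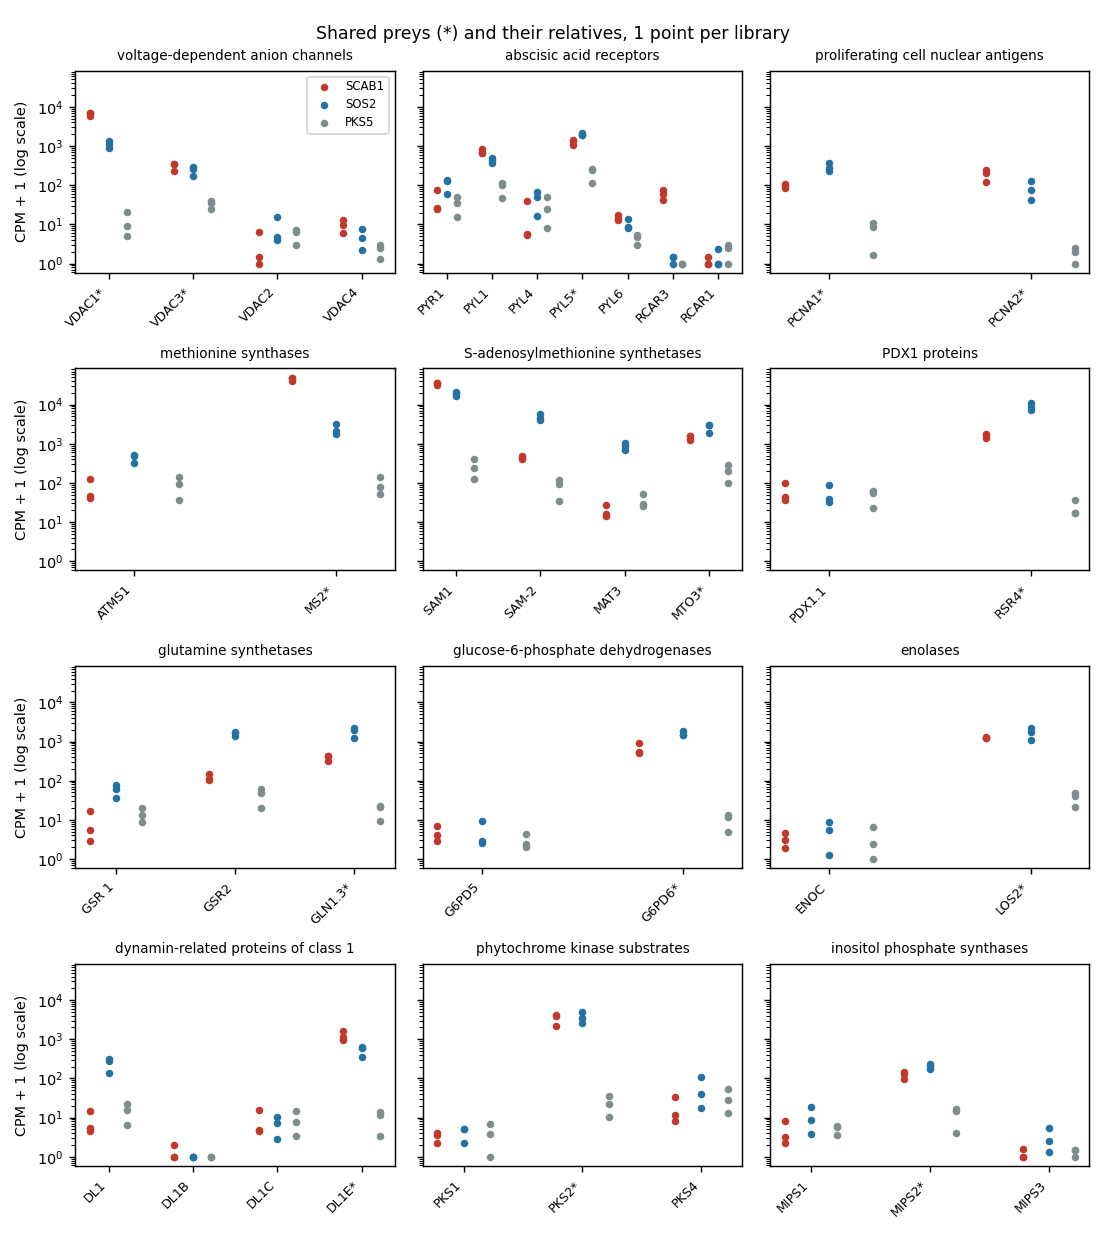
Level of the shared preys (starred) and of their relatives in 12 families, as CPM + 1 on a log axis, with 1 point per library. PKS5 points lie lowest for every starred gene, and within the methionine synthases, S-adenosylmethionine synthetases and PCNA genes the order of SCAB1 and SOS2 differs between relatives.

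Whether a shared prey was recovered more with one of its baits than with the other was tested next, since the rule did not use that contrast beyond a floor in both. By limma-voom with TMM scaling, 28 of the 65 genes (43.1%) passed an adjusted p under 0.05, against 1546 of all 3811 genes tested (40.6%) and 209 of the other 485 genes (43.1%) that had at least 20 CPM in all 6 libraries. The share called was thus near that of genes in general. Of the 28, 21 were higher with SCAB1 (32.3% of the members, background 15.1%) and 7 lower (10.8%, background 25.5%). Among the other 485 genes the split was nearer to even, at 22.7% higher and 20.4% lower. The split of the members depended on the scaling: with library size alone 25 (38.5%) passed, 12 higher (18.5%) and 13 lower (20%). Of all 3811 genes, 259 were then higher and 793 lower. Of the other 485 genes, 11.5% were then higher and 20.8% lower. The median log2 difference of the members was 0.65 with TMM, against -0.25 for all genes tested, and 0.04 with library size alone, against -0.72. With recovery time, which same-numbered libraries share, as a block, 34 members were called, the 28 and DET3 (adjusted p = 0.0488), KTI1 (0.0494), NUDT7 (0.0304), AT4G15160 (0.0477), AQI (0.0084) and PCNA1. On CPM, 24 members (36.9%, background 8.97%) had every SCAB1 library above every SOS2 library, and 21 (32.3%, background 25%) had every one below. That background is all 3811 genes tested, which need not meet the floor of 20 CPM. The same count was not made for the other 485 genes, so the part of the floor in the excess was not tested.

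The 5 largest differences towards SCAB1 were those of AT3G22440, MS2, AT3G14240, AT3G52360 and ASPG1. AT3G22440 had 2342, 4551 and 3102 CPM in SCAB1, against 109, 167 and 116 in SOS2, a log2 difference of 5.18 (SE 0.65, adjusted p = 6.22e-07, range over alternatives 1.91e-22 to 0.000205). MS2, whose values are given above, was higher by 4.79 (SE 0.77, adjusted p = 1.68e-05, range 8.5e-48 to 0.00198). AT3G14240 was higher by 4.36 (SE 0.75, adjusted p = 3.92e-05, range 8.04e-38 to 0.00177). For these 3 genes the lowest SCAB1 library stood more than 10-fold above the highest SOS2 library. AT3G52360 had 1477, 1697 and 1324 CPM in SCAB1 and 291, 111 and 219 in SOS2 (log2 difference 3.53 with an SE of 0.54, adjusted p = 8.43e-06, range 1.56e-09 to 0.00137). The protease ASPG1 was higher by 3.50 (SE 0.68, adjusted p = 0.000167, range 1.36e-15 to 0.0392).

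Towards SOS2 the largest difference was that of actin. ACT7 differed by -3.94 on the log2 scale (SE 0.63, adjusted p = 1.62e-05, range 1.42e-23 to 0.00271), its mean being 22.9 times as high in SOS2 as in SCAB1. It was the 1 lower call that held when any 1 SCAB1 or SOS2 library was left out. AT5G66180 had 664, 964 and 827 CPM in SCAB1 and 4760.2, 5231 and 6941 in SOS2 (log2 difference -2.23 with an SE of 0.67, adjusted p = 0.00942, range 1.5e-12 to 0.143). AT5G38020 had 174, 353 and 184 CPM in SCAB1 and 1268, 1569 and 1288 in SOS2 (log2 difference -2.05 with an SE of 0.63, adjusted p = 0.0108, range 2.85e-07 to 0.152). The vitamin B6 enzyme RSR4 was lower with SCAB1 by a log2 difference of -1.94 (SE 0.75, adjusted p = 0.0427, range 4.49e-12 to 0.292), and the peroxidase PRXCB by -1.90 (SE 0.55, adjusted p = 0.0076, range 1.47e-07 to 0.124). The calls of AT5G66180, AT5G38020 and PRXCB were lost without SCAB1 replicate 1, SOS2 replicate 2 or SOS2 replicate 3, and that of RSR4 without any of these or SCAB1 replicate 3. GLN1.3 and ROL5 completed the lower calls, with log2 differences of -1.65 and -1.69 (adjusted p = 0.021, range 3.32e-06 to 0.299, and 0.0116, range 0.000838 to 0.272).

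In the nuclear and RNA group 4 of 9 were called higher with SCAB1 and 1 lower. The higher ones were NF-YC10 (3.26, adjusted p = 0.000118), MYB4 (2.29, adjusted p = 0.00446), PCNA2 (1.93, adjusted p = 0.0118) and PRH75 (1.49, adjusted p = 0.0113), and the lower one was ROL5. PCNA1, the paralog that was higher with SOS2 on CPM, had a log2 difference of -1.03 and was not called (adjusted p = 0.103, range over alternatives 0.0206 to 0.685). With recovery time as a block, PCNA1 passed at an adjusted p of 0.0463. Of 6 extracellular proteins 2 were higher, ARA12 (3.16, adjusted p = 0.00171) and ASPG1, and 1 lower, PRXCB. Of 7 membrane and cytoskeleton proteins 2 were higher, VDAC1 (3.13, adjusted p = 0.000518) and DL1E (1.84, adjusted p = 0.0138), and 1 lower, ACT7. VDAC3 had a difference of 0.87 and was not called (adjusted p = 0.18, range over alternatives 6.75e-08 to 0.739), although 2 of 15 alternatives called it. By unique reads VDAC3 stood at 4463 per 1000000 in SCAB1 and 1289 in SOS2. Among the metabolic enzymes MS2 and ACO1 (1.86, adjusted p = 0.0153) were higher and GLN1.3 and RSR4 lower, and in signalling WES1 was higher (1.42, adjusted p = 0.0202). None of the 4 members of specialised metabolism and none of the 3 of redox and nucleotide housekeeping passed. Of the 23 genes given no function here 10 were higher and 2 lower.

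Under all 4 scalings that were run, 12 members were called higher with SCAB1 and 4 lower. The 12 were MS2, ARA12, ASPG1, VDAC1, ACO1, MYB4, NF-YC10, AT3G14240, AT3G22440, AT3G52360, AT1G17860 and AT1G66180, and the 4 were ACT7, PRXCB, AT5G38020 and AT5G66180. The sign was positive in every scaling for 34 members, negative for 18 and mixed for 13. Taken singly, these scalings called 23 to 30 members and 1052 to 1546 of the 3811 genes tested. Calls and signs held over all 4 scalings were not counted for genes other than members, so these counts have no background. Leaving out 1 SCAB1 or SOS2 library at a time, 11 of the 28 calls held in each fit, 10 higher and ACT7. The number of members called was 30, 20 and 16 without SCAB1 replicate 1, 2 or 3, and 21, 11 and 34 without SOS2 replicate 1, 2 or 3. Over all genes the same fits called 1293 of 3569, 1280 of 3721 and 1262 of 3754 without a SCAB1 library. Without a SOS2 library they called 1274 of 3280, 1196 of 3509 and 1348 of 3586. How many calls over all genes held in each fit was not counted. Without SOS2 replicate 2, 17 of the 28 lost their call, and for MYB4 this was the 1 library that did so (adjusted p over alternatives 7.19e-05 to 0.473). The higher calls of PCNA2 (range 6.15e-05 to 0.17), ACO1 (0.000451 to 0.386), DL1E (0.000494 to 0.115), WES1 (0.00136 to 0.635), AT1G16870, AT1G21010, AT1G21050 and AT3G45310 were lost without SCAB1 replicate 2 or 3 or SOS2 replicate 1 or 2. Those of PRH75 (0.00131 to 0.373) and AT1G17860 (7.53e-06 to 0.0718) were lost without SCAB1 replicate 2 or 3 or SOS2 replicate 2. The lower call of GLN1.3 was lost without SCAB1 replicate 1 or 3 or SOS2 replicate 2 or 3, and that of ROL5 without SCAB1 replicate 1 or SOS2 replicate 2 or 3.

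Several members had a small log2 difference with TMM scaling and were not called. ESM1 had a log2 difference of 0.48 (SE 0.63, adjusted p = 0.588), PKS2 0.45 (SE 0.71, adjusted p = 0.659) and LOS2 0.20 (SE 0.60, adjusted p = 0.833). With library size alone ESM1, PKS2 and LOS2 had -0.05, -0.10 and -0.39, so their sign changed with the scaling. With TMM, PYL5 had -0.11 (SE 0.58, adjusted p = 0.904), MIPS2 -0.17 (SE 0.46, adjusted p = 0.819) and AIR12 -0.08 (SE 0.50, adjusted p = 0.919). PYL5, MIPS2 and AIR12 nevertheless had every SOS2 library above every SCAB1 library on CPM, and with library size alone their differences were -0.65, -0.68 and -0.64, so their place near 0 depends on the scaling. The standard errors with TMM are as large as or larger than most of these differences, so these genes are not shown to be recovered alike.

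**Figure D3:**
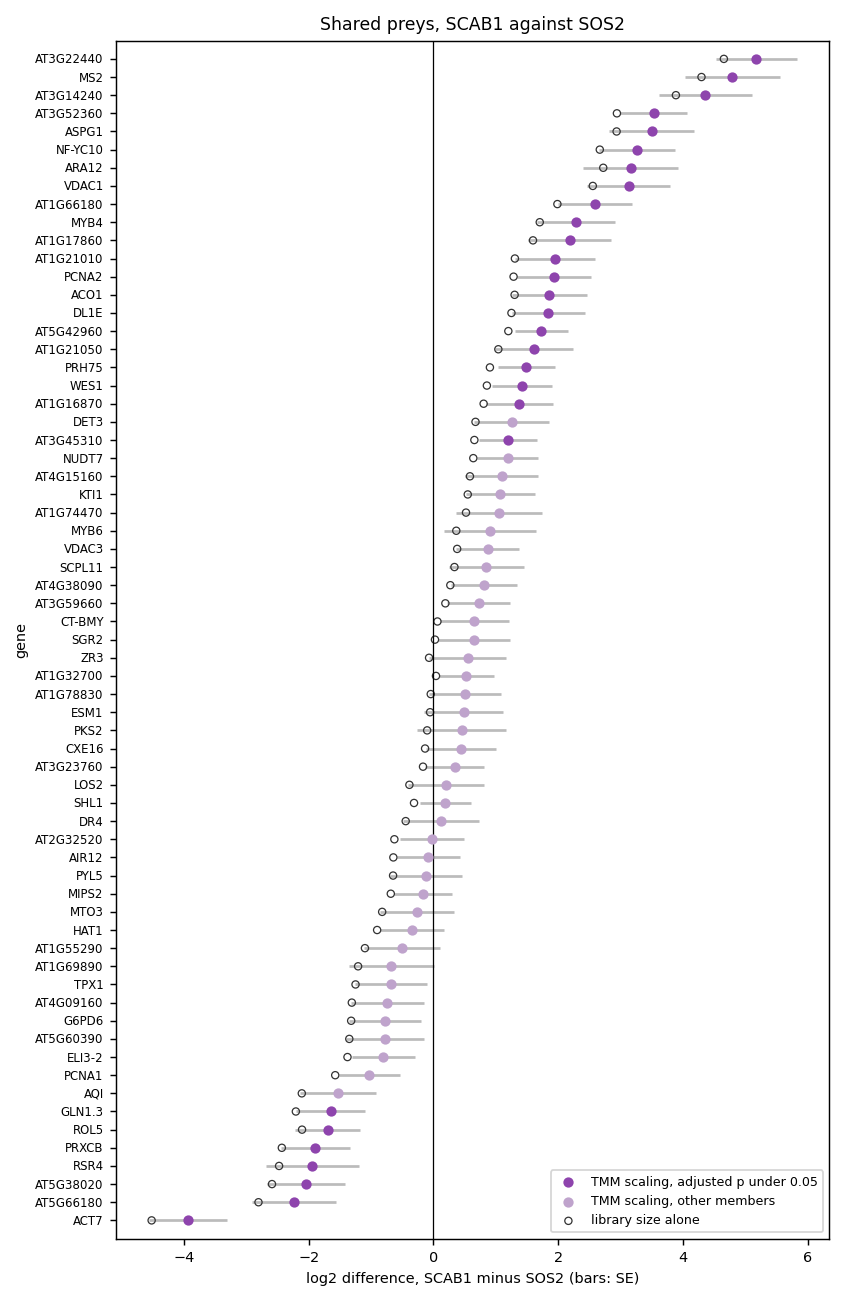
Log2 difference of SCAB1 minus SOS2 for the 65 shared preys, sorted, with TMM scaling (filled points, bars show the SE, dark where adjusted p was under 0.05) and with library size alone (open points). AT3G22440 lies at 5.18 and ACT7 at -3.94, and the open points lie to the left of the filled ones throughout.

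The table also gives a number of unique reads per gene, which is not defined in the sources used here and was read as the number of distinct reads. It was usable in 8 libraries, because the column of SCAB1 replicate 3 repeats that of replicate 2. By unique reads the members were far less set apart from PKS5 than by reads. They held 4.96 and 5.85% of the unique reads in SCAB1 replicates 1 and 2, 4.08, 5.05 and 5.58% in SOS2, and 2.09, 2.32 and 2.22% in PKS5. The median member had 15 and 12 unique reads in SCAB1, 16, 21 and 22 in SOS2, and 5, 4 and 5 in PKS5. Per 1000000 unique reads, the median ratio to PKS5 was 2.35 for SCAB1 (0.542 to 20.5) and 2.58 for SOS2 (0.807 to 17.5). The median ratio of mean CPM was 49.9 and 40.5. AQI with SCAB1, ASPG1 with SOS2 and WES1 with both had fewer unique reads per 1000000 than with PKS5. Applied to unique reads on that scale, the same rule was met by 27 genes, and 2 of these were members, AT1G55290 and NF-YC10.

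The difference lay in how many reads each unique read stood for. Among members a unique read stood for 214 and 421 reads in SCAB1, 110.0, 92.2 and 181 in SOS2, and 9.33, 6.91 and 11.9 in PKS5. Over all genes the same quotient was 53.9 and 101 in SCAB1, 45.9, 45.9 and 87.7 in SOS2, and 67.4, 137 and 77.3 in PKS5. Pooled over the members, the quotient was above that of all genes in the SCAB1 and SOS2 libraries and below it in PKS5. Taken singly against the libraries of a bait combined, 41 of 65 members were above it with SCAB1, 43 with SOS2 and 0 with PKS5. VDAC3 was among those below it, at 5.82 in SCAB1, 10.7 in SOS2 and 7.83 in PKS5. For ARA12 it was 1655 in SCAB1, 368 in SOS2 and 13.7 in PKS5, with a mean of 74 unique reads in SCAB1, 59.0 in SOS2 and 16.7 in PKS5. For AT1G74470 it was 199.8 in SCAB1, 122 in SOS2 and 10.2 in PKS5, with a mean of 139.5 unique reads in SCAB1, 179 in SOS2 and 48.7 in PKS5. The median over members was 102 in SCAB1, 82.8 in SOS2 and 7.40 in PKS5. Over all tested genes with unique reads the median was 6.67 in SCAB1, 9.21 in SOS2 and 6.97 in PKS5. With PKS5 the members were thus near the median of all tested genes, though below the quotient of all genes combined. Over the other 485 genes with at least 20 CPM in the same 6 libraries the median was 18.4 in SCAB1, 20.5 in SOS2 and 14.6 in PKS5. Those other genes share the floor but not the level of the members. The median of their mean CPM was 107 in SCAB1, 166 in SOS2 and 83.8 in PKS5, against 653, 783 and 13.2 for members. The rule chose the members by their reads, so a quotient of reads is not independent of that choice. The other 485 genes had a median ratio of unique reads to PKS5 of 1.01 for SCAB1 and 0.913 for SOS2. Apart from those set aside by name, these genes failed the ratio to PKS5 by reads in the same libraries. Their ratio of unique reads, set against that of the members, is therefore not independent of the rule either. What sets the number of reads per unique read was not tested.

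**Figure D4:**
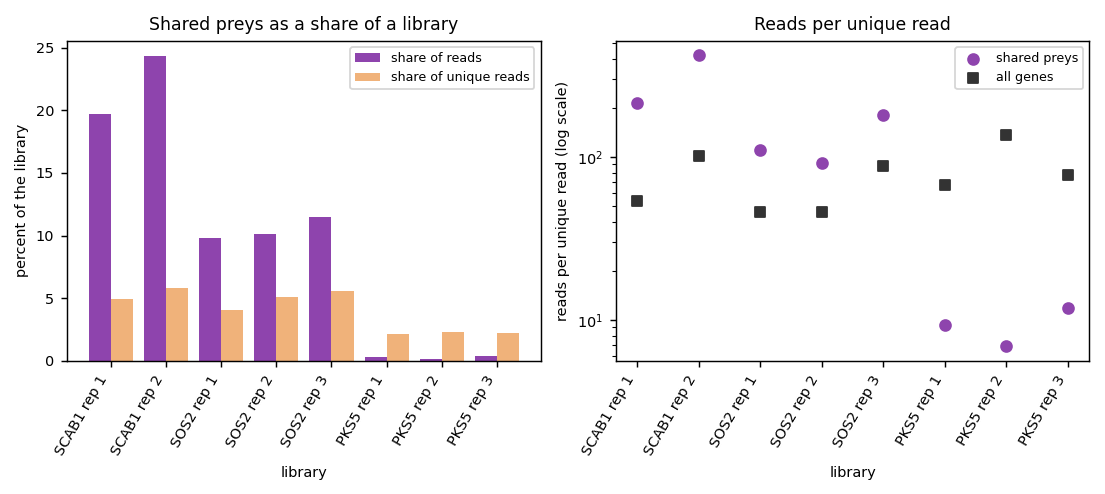
Share of reads and of unique reads held by the 65 shared preys in each library (left, bars, percent), and reads per unique read in the shared preys and in all genes (right, points, log axis), for the 8 libraries with usable unique reads. The bars of reads stand at 9.78% or more in SCAB1 and SOS2 and at 0.342% or less in PKS5, and those of unique reads at 4.08% or more in SCAB1 and SOS2 and at 2.32% or less in PKS5.

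Recovery time was the remaining factor. The rule did not contrast the times, but it took the lowest of the 0, 2 and 4 h libraries of SCAB1 and SOS2. A gene that fell at any of these times could thus fail, so the time comparison is not independent of the choice of members. By limma-voom with bait as a covariate, at an adjusted p under 0.05 there were 0 calls among the 65 members and 0 (0%) among all 3811 genes for 0 h against the mean of 2 and 4 h, with TMM scaling. At an unadjusted p under 0.05 there were 60 members, all lower at 0 h, and 467 genes in all. The lowest adjusted p of a member was 0.0822, for AT5G38020 and RSR4. The median log2 difference of the members was -1.11, against -0.07 for all genes and -0.27 for the other 485 genes at the same floor. With library size alone the median was 0.09, against 1.21 and 0.93, and 0 members but 698 genes, all higher at 0 h, were called. The median of the members lay below that of all genes under both scalings, but whether it lay below 0 depended on the scaling. In the 6 SCAB1 and SOS2 libraries alone, 27 of 65 members and 60 of all 3254 genes tested there were called, all lower at 0 h. That fit had 2 residual degrees of freedom and used only the libraries whose lowest level chose the members. The time difference was not shown to differ between SCAB1 and SOS2, with 0 members called for the interaction and a lowest adjusted p of 0.865.

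The order of the 3 libraries of a bait was also read on CPM. In SCAB1 the 0 h library was the highest of the 3 for 8 members (12.3%), against 84.7% of the other 485 genes and 87.9% of all tested genes with reads. The 2 h library was the highest for 48 members (73.8%), against 10.7% of the other 485. In SOS2 the 0 h library was highest for 18 members (27.7%), against 81.6% of the other 485, and the 4 h library for 33 (50.8%), against 13.6%. At 2 h, where SCAB1 was mostly highest, SOS2 was lowest for 38 members (58.5%), against 34.2% of the other 485 and 26.2% of all tested genes with reads. More genes had reads at 0 h than later, 7321 against 5753 and 5450 in SCAB1, and 8594 against 7479 and 6845 in SOS2. The other 485 genes also had lower levels than members. The median of their mean CPM was 107 in SCAB1 and 166 in SOS2, against 653 and 783 for members. The rule also asked that the lowest of these libraries reach 4 times the highest PKS5 level. A gene that fell after 0 h could thus fail it and be counted among the other 485, so the order is not independent of the rule. The part of the rule, of the number of genes or of the level in the order was not tested. Between the libraries of 1 bait the highest level was 1.05 to 2.10 times the lowest in SCAB1 (median 1.38) and 1.11 to 3.06 times in SOS2 (median 1.61), with PCNA2 at the upper end for both.

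**Figure D5:**
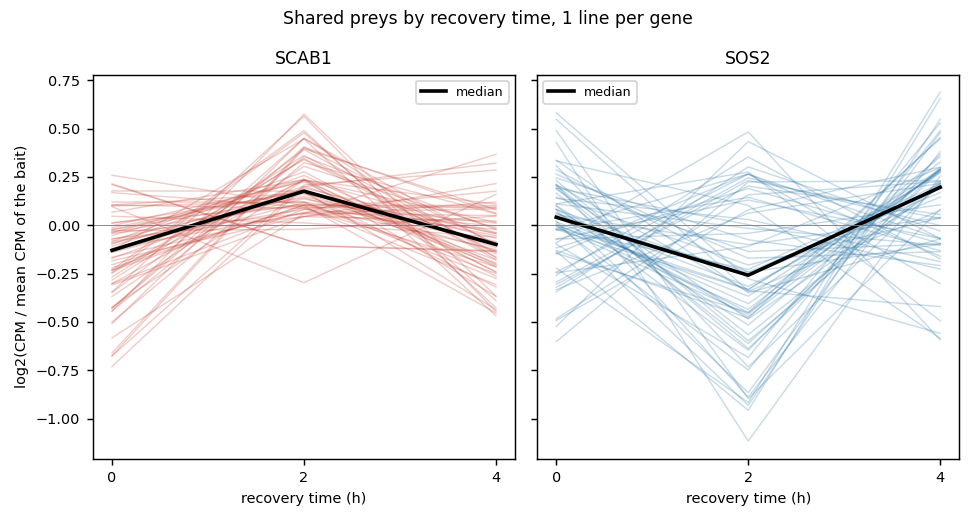
Level of each shared prey at 0, 2 and 4 h of recovery relative to its mean over the 3 libraries of the bait, as log2(CPM / mean CPM), for SCAB1 (left) and SOS2 (right), with the median in black. The median peaks at 2 h in SCAB1, where 48 members are highest (73.8%, against 10.7% of the other 485 genes). It dips at 2 h in SOS2, where 38 members are lowest (58.5%, against 34.2% of the other 485 genes).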

How the data were processed

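The authors deposited 1 table of whole-number read counts and unique reads per gene and library, not normalized, per the file headers, in which a mark stands for no read and was taken as 0. HISAT2, cutadapt 1.18, CASAVA and the TAIR10 build are named in the submitters' processing notes, and the way reads were assigned to genes is not stated there. The members and lists were chosen with earlier results of these data known. CPM is reads over the library total, times 1000000. The test was limma-voom (limma 3.58.1, R 4.3.3) on the counts of all 9 libraries, with TMM factors (30% of M and 5% of A values trimmed), an offset of 0.5, robust eBayes and Benjamini-Hochberg adjustment over 3811 genes, which had 15 reads in all and, in 3 libraries, about 10 at the median depth. All 65 members passed that filter. TMM factors ran from 0.438 to 2.40. The script was tested on simulated data. Alternatives were other scalings, other filters, unique reads, a replicate block and leaving out each SCAB1 or SOS2 library. PKS5 libraries were left out in turn for the rule only, not for the tests. The interaction with time and the fit without the 0 h libraries were added after seeing the data.

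Functions were to be read from words in gene descriptions, but the reference table used holds symbols and synonyms only, so members with a symbol or descriptive synonym were placed by hand from textbook knowledge of that name, and ZR3 and genes listed by locus alone were given no function, whatever is known of them elsewhere. Named genes were the 20 with the highest floor, the 5 largest calls in each direction, the 3 nearest each threshold and 2 to 4 of each function group; other members with a known function and the relatives were named after their values were seen. Of the columns, 1 of unique reads was not used, since it repeats another library's values. No sequences are printed.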

Additional observations from a re-analysis of the deposited data

How the results depend on the processing

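The number of members called for SCAB1 against SOS2 was 28 and stayed within 1.5 times of that under the other scalings and filters, at 23 to 30. It was 17 of 46 testable members with unique reads, where 282 of 872 genes were called in all. When 1 SCAB1 or SOS2 library was left out it was 11 to 34. The low values were 11 without SOS2 replicate 2 and 16 without SCAB1 replicate 3. For all genes the count was 1196 to 1348 when 1 SCAB1 or SOS2 library was left out. Same-numbered libraries share a recovery time but are not said to share a culture, and those of SCAB1 and SOS2 correlated by 0.161, -0.008 and 0.117 over genes, so the block was not made the main setting. With the replicate block, 34 members and 1587 genes were called. For 0 h against later times, no member was called under other scalings or filters or with any 1 SCAB1 or SOS2 library left out (0 to 0). In the 6 SCAB1 and SOS2 libraries alone, however, 27 of 65 members and 60 of all 3254 genes tested there were called. Over all genes 698 were called with library size alone, 6 with no filter, and 0 to 1 with 1 SCAB1 or SOS2 library left out. The rule gave 42 genes at 8 times PKS5, 89 at 2 times, 27 by unique reads, 56 with TMM-scaled CPM, of which 54 were members, 51 without genes above 5% of any library, and 65 to 74 with 1 library left out. Over single members, 956 refits gave no reversal of a called direction, and 92 lost and 53 gained a call.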
